A study of Mus musculus with 6 samples.

Results

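The secreted Wnt antagonists of the mouse lung were followed through 8 listed genes, Sfrp1, Sfrp2, Sfrp4, Sfrp5, Frzb, Dkk2, Dkk3 and Wif1, out of 31053 genes counted in each of 6 single-cell RNA libraries. They were picked because Sfrp2 and Sfrp1 had been seen to lead the arterial cells richest in elastin, so their split by the elastin gene Eln is given as a description with no test. Wnts are secreted lipid-modified ligands that bind Frizzled receptors and the co-receptors LRP5 and LRP6, and that act in lung growth, vascular patterning and smooth muscle formation. The Sfrp proteins and Frzb carry a Frizzled-like domain that binds Wnts outside the cell, and Wif1 binds Wnts through a domain of its own. Dkk2 instead binds the LRP co-receptors, and Dkk3 is a divergent Dickkopf family member whose part in Wnt signalling is less settled.

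The libraries came from Cxcl12DsRed mice, in which the fluorescent protein DsRed is inserted into the gene of the chemokine Cxcl12 and so marks cells that use that locus. One library each was made from Cxcl12DsRed/+ lungs at embryonic day (E) 13.5, 15.5 and 18.5 and at postnatal day (P) 8, pooled over several lungs and sorted for the reporter, with epithelial (EpCAM) and blood (CD45) cells gated out. The labels describe reporter-positive cells both with and without the endothelial surface protein CD31 as collected. Unsorted whole lungs at E18.5 gave 1 library labelled Cxcl12 null (Cxcl12DsRed/DsRed) and 1 labelled control (Cxcl12DsRed/+). Every animal, controls included, therefore carried at least 1 reporter allele, and the sorted libraries were gated towards cells that use the Cxcl12 locus, with 2 to 19 epithelial and 1 to 11 immune cells left in each. With 1 library per group there was no replicate, so no p-value is given and the intervals quoted cover counting error only.

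Levels are counts of unique molecular identifiers (UMIs, one per captured RNA molecule) summed over the cells of a class and divided by all UMIs of those cells, as CPM (counts scaled to a total of 1000000), with exact 95% Poisson intervals. The assay counts 3′ ends, so CPM values of different genes are not compared with each other. Endothelial cells were those with at least 2 UMIs of the endothelial adhesion genes Pecam1 and Cdh5 together and at most 2 UMIs of the collagen genes Col1a1 and Col3a1, and they were split into Eln-high cells (10 or more Eln UMIs) and Eln-low cells (under 10). Mesenchymal cells had 5 or more UMIs of Col1a1 and Col3a1 and none of Pecam1 or Cdh5. In the order E13.5, E15.5, E18.5, P8, labelled null and labelled control, there were 27, 1101, 721, 366, 135 and 55 Eln-high cells, 134, 7790, 8303, 7853, 2562 and 1681 Eln-low cells, and 11122, 1798, 232, 59, 4299 and 3818 mesenchymal cells. A pool entered a comparison with at least 50 cells, and a gene was called where it reached 10 CPM in at least 1 of the pools and differed at least 2-fold on the log2(CPM + 0.5) scale. The folds printed are plain ratios of CPM with exact conditional 95% intervals.

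Pools of at least 50 cells numbered 21, with lymphatic endothelial cells not taken as a pool of their own. Of the 8 genes, 6 reached 10 CPM in at least 1 of these 21 pools, namely Sfrp1, Sfrp2 and Dkk2 in 11 pools each, Wif1 in 10, Dkk3 in 5 and Frzb in 3. Sfrp4 and Sfrp5 reached it in none.

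The 8 genes lie on 7 chromosomes, with Sfrp2 and Dkk2 on the same one. In GRCm38 coordinates, Sfrp1 (ENSMUSG00000031548) lies at chr8:23411502-23449632, Sfrp2 (ENSMUSG00000027996) at chr3:83766321-83774316, Dkk2 (ENSMUSG00000028031) at chr3:132085292-132180304 and Wif1 (ENSMUSG00000020218) at chr10:121033960-121100650, all on the plus strand. Frzb (ENSMUSG00000027004) at chr2:80411970-80447625, Dkk3 (ENSMUSG00000030772) at chr7:112116017-112159057 and Sfrp5 (ENSMUSG00000018822) at chr19:42197971-42202252 are on the minus strand, and Sfrp4 (ENSMUSG00000021319) at chr13:19623104-19632994 is on the plus strand. Within the last 300 bases of the transcripts, where 3′ reads fall, 0 of the 30-base pieces of any member occurred in another gene. The long noncoding gene Gm26771 overlaps the 3′ end of Sfrp2 on the opposite strand, and no other member had an overlapping gene there.

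Promoter windows of 3 members are shown because these genes carry the main patterns below, Sfrp2 in Eln-high cells, Dkk2 in an endothelial gradient and Wif1 in the reverse of it. Each runs from 250 bases before to 50 after the start site, 5′ to 3′ on the plus strand, and comes from RefSeq (GRCm38.p6), whose table matched 5 of the 8 members. Capitals mark matches on either strand to CTTTGA and its variant CTTTGT, both cores read by TCF/LEF proteins, the DNA-binding partners of β-catenin, and to TGGGAA (the core read by the Notch effector RBPJ), GGGCGG (read by Sp-family factors) and TATAAA (the site bound by the TBP protein). CTTTGT was added after the windows had been seen.
Sfrp2, chr3:83766071-83766370: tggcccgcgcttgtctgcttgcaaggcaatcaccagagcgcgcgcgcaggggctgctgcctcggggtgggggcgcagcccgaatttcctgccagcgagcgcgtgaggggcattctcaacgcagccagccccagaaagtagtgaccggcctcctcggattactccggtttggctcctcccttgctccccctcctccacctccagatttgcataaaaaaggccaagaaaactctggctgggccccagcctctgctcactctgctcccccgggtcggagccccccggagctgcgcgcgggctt
Dkk2, chr3:132085042-132085341: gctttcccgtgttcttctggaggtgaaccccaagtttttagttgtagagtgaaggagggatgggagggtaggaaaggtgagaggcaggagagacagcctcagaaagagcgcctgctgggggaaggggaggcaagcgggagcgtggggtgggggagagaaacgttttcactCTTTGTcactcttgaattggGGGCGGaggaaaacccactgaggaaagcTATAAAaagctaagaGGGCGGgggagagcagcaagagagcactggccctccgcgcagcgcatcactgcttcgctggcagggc
Wif1, chr10:121033754-121034053: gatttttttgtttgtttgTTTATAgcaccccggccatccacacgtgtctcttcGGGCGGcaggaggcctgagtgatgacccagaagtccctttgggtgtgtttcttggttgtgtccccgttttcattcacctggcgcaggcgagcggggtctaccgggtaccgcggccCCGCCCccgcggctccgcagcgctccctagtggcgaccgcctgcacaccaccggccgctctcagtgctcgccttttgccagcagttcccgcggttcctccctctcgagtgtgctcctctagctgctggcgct
The Sfrp2 window held none of the 5 motifs, the Dkk2 window held 1 CTTTGT, 2 GGGCGG and 1 TATAAA on the plus strand, and the Wif1 window held 1 GGGCGG on each strand and 1 TATAAA on the minus strand. Among 32851 promoters of this length, CTTTGA was present in 16.0%, CTTTGT in 18.7%, TGGGAA in 25.6%, GGGCGG in 35.7% and TATAAA in 13.6%. The GC content was 66.0% for Sfrp2, 57.7% for Dkk2 and 63.0% for Wif1, against a median of 52.7% over all promoters. These matches are a description of letters, since no binding was measured.

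The libraries held 8845 to 13098 cell barcodes and 63746333 to 117522172 UMIs, and 7448 to 12726 cells passed the filters with a median of 5647 to 9042 UMIs. Library pairs shared 20 to 54 barcodes, except the whole-lung pair, which shared 140 (1.42% and 1.58% of its barcodes). In the whole lungs the labels went against Cxcl12 itself. The library labelled null held 480 CPM in Eln-low cells and 41.2 CPM in mesenchymal cells, and the one labelled control 4.16 and 0.278 CPM. The names under which these counts were deposited also give the opposite genotype. Both libraries are named by their labels throughout, and the labels may be swapped. An 8-gene endothelial list summed to 4422 to 6910 CPM in Eln-high cells and 44.3 to 130 CPM in mesenchymal cells, and a 6-gene proximal arterial list summed to 4130 to 9801 CPM in Eln-high against 234 to 774 CPM in Eln-low and 1005 to 6714 CPM in mesenchymal cells, so it does not mark arterial endothelium alone. Other marker lists moved with the Eln split: a 5-gene smooth muscle list summed to 76.3 to 460 CPM in Eln-high against 9.83 to 130 CPM in Eln-low cells, with 2015 to 8871 CPM in mesenchymal cells, and a 4-gene venous list summed to 571 to 1215 against 68.7 to 268 CPM. The highest gene of the venous list in every Eln-high pool was Vwf, which marks larger vessels, so this list does not mark veins alone. The part of the smooth muscle trace in the values below was tried only by leaving out cells with an Acta2, Tagln or Myh11 UMI, and that of the venous list was not tested. In the 55 Eln-high cells labelled control, epithelial and immune lists summed to 3666 and 3871 CPM.

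In arterial endothelium, Sfrp2, which binds Wnts through its Frizzled-like domain, peaked at E15.5. In Eln-high cells it stood at 78.7 CPM at E13.5, 581 CPM (95% interval 565 to 597) at E15.5, 155 CPM (146 to 165) by E18.5 and 69.9 CPM (61.3 to 79.3) by P8, and at 129 CPM (113 to 147) and 108 CPM (86.2 to 133) in the libraries labelled null and control. In Eln-low cells of the same libraries it stood at 8.28, 5.27, 0.401, 0.225, 0.341 and 0.0630 CPM. The Eln-high value exceeded the Eln-low value in every library, and the E15.5 library was the highest in Eln-high cells. The ratio was 110-fold (99.7 to 122) at E15.5, 387-fold (252 to 628) by E18.5, 310-fold (178 to 591) by P8 and 379-fold (196 to 840) in the library labelled null. Per UMI of the collagen gene Col1a2, Eln-low cells held 0.661 Sfrp2 UMIs at E15.5, against 0.583 in mesenchymal and 17.6 in Eln-high cells. Eln-low and mesenchymal values were 0.133 against 0.0526 at E18.5 and 0.210 against 0.0158 at P8. The part of stray mesenchymal RNA in the Eln-low levels, and so in these ratios, was not tested. The value of the library labelled control rested on 1 cell of 55, which held all 87 Sfrp2 UMIs among its 16937 UMIs and was called a doublet, and the level without that cell was 0 CPM.

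Its close relative Sfrp1, another Wnt-binding Sfrp protein, marked the same class but with another time course. In Eln-high cells Sfrp1 stood at 72.7 CPM (37.6 to 127) at E13.5, 76.5 CPM (70.8 to 82.4) at E15.5, 49.3 CPM (44.0 to 55.0) by E18.5 and 132 CPM (120 to 144) by P8, and at 18.6 CPM (12.9 to 26.0) and 13.6 CPM (6.79 to 24.4) in the libraries labelled null and control. Eln-low cells held 14.5, 0.993, 0.229, 0.139, 1.02 and 0.819 CPM. All 4 sorted values lay above both whole-lung values in Eln-high cells, and P8 was the highest. The ratio to Eln-low cells was 77.0-fold (60.9 to 98.6) at E15.5, 215-fold (121 to 420) by E18.5 and 950-fold (478 to 2213) by P8, and 18.2-fold (10.7 to 31.4) in the library labelled null. The last value moved with the processing, from a log2 ratio of 3.65 to 6.46 with the deposited SoupX-adjusted counts, in which the authors had subtracted estimated free RNA, and to 1.97 with a pseudocount of 5 CPM, and 9 of its 27 Eln-low UMIs came from 1 cell, with 0.683 CPM left without it. In the library labelled control the 11 UMIs came from 2 of the 55 cells, 8 of them from the cell that also held the Sfrp2 UMIs, and 3.79 CPM were left without it.

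Dkk2, which blocks the LRP co-receptors and can also activate them in some settings, followed an endothelial gradient. Its Eln-high level was 424 CPM at E13.5, 411 CPM (398 to 424) at E15.5, 493 CPM (476 to 511) by E18.5 and 167 CPM (153 to 181) by P8, and 348 CPM (322 to 377) and 240 CPM (207 to 276) in the libraries labelled null and control. Eln-low cells held 245, 117, 30.3, 2.89, 9.92 and 6.55 CPM in the same order. The gap between the classes widened with age in the sorted libraries, from 3.51-fold (3.38 to 3.65) at E15.5 to 16.3-fold (15.3 to 17.3) at E18.5 and 57.7-fold (48.5 to 68.9) at P8. In the libraries labelled null and control the ratio was 35.1-fold (30.4 to 40.7) and 36.6-fold (28.7 to 46.9).

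Wif1, which binds Wnts directly, ran the other way. Its Eln-high level was 0 CPM at E13.5, 0.557 CPM at E15.5, 2.51 CPM by E18.5, 9.02 CPM by P8, and 4.38 and 16.1 CPM in the libraries labelled null and control, while Eln-low cells held 11.4, 4.54, 22.6, 71.9, 16.4 and 15.3 CPM. Eln-low cells were higher by 8.99-fold (5.51 to 15.8) at E18.5, 7.97-fold (5.61 to 11.7) at P8 and 3.75-fold (1.89 to 8.74) in the library labelled null. Without called doublets the log2 ratio of Eln-high to Eln-low cells went from -2.94 to -3.37 at E18.5, from -2.93 to -4.14 at P8 and from -1.79 to -2.55 in the library labelled null. With SoupX-adjusted counts the last difference turned to 0.98 log2 higher in Eln-high cells. The library labelled control, with 13 Wif1 UMIs in 5 Eln-high cells, was not called, at 1.05-fold (0.551 to 1.83).

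**Figure D1:**
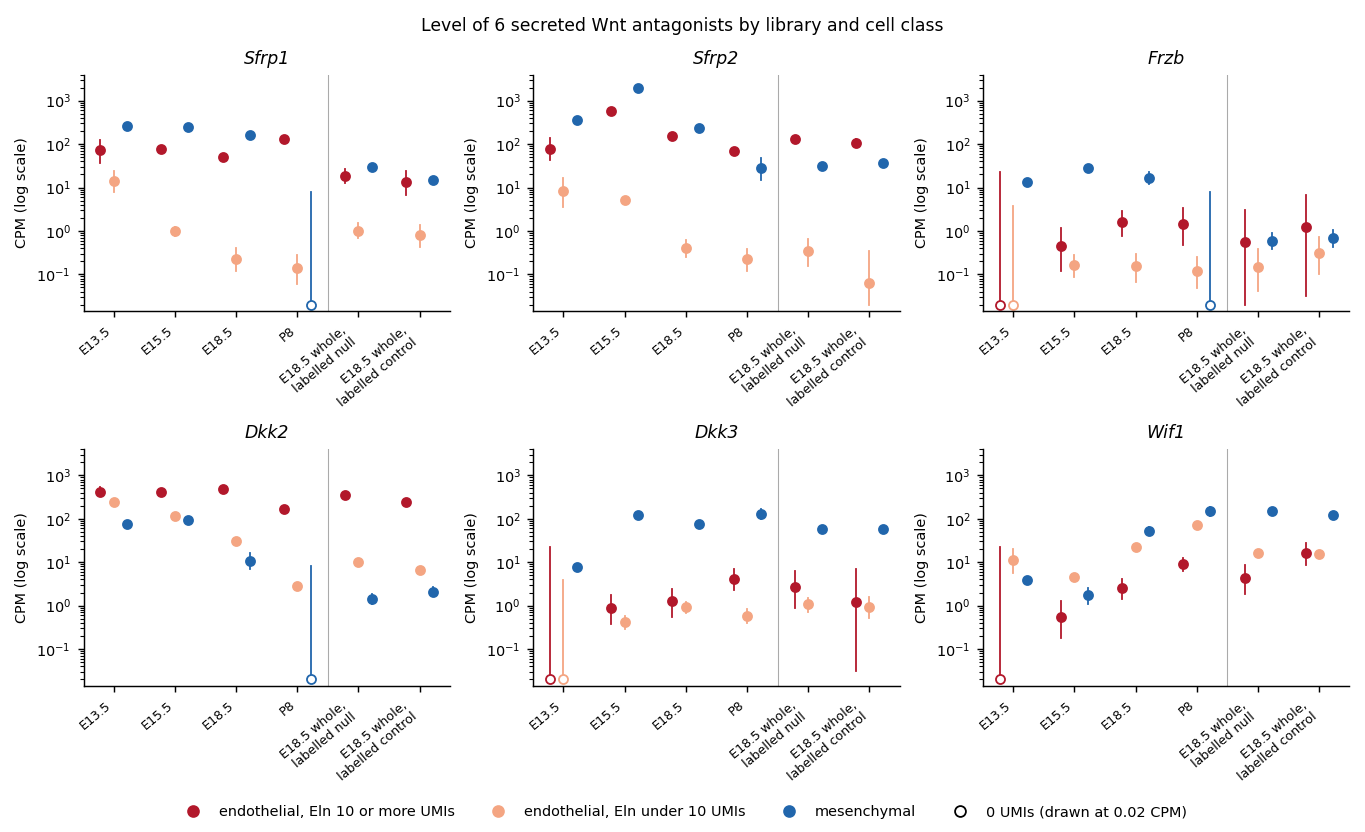
Levels of 6 secreted Wnt antagonists (CPM, log axis) in the 6 libraries, one panel a gene, with points for Eln-high endothelial, Eln-low endothelial and mesenchymal cells, bars for 95% Poisson intervals, and open circles at 0.02 CPM for 0 UMIs. Sfrp1, Sfrp2 and Dkk2 lie higher in Eln-high than in Eln-low cells in every library, and Wif1 at P8 lies lower in Eln-high (9.02 CPM) than in Eln-low cells (71.9 CPM).

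Across the Eln split, 3 members were called higher in each of the 5 libraries with at least 50 Eln-high cells, always Sfrp1, Sfrp2 and Dkk2, out of 3 members tested at E15.5 and 4 in the others. Of all genes tested, 8.11% were called higher at E15.5, 6.58% in the E18.5 and 6.29% in the P8 library, 7.58% in the library labelled null and 12.3% in the one labelled control, and 3.74%, 6.56%, 5.14%, 6.34% and 7.21% were called lower. Since the rule used this contrast, nothing is read from these counts. Leaving out endothelial cells with any Col1a1 or Col3a1 UMI gave log2 ratios at E15.5 of 5.27 for Sfrp1, 6.35 for Sfrp2 and 1.83 for Dkk2, and leaving out those with any Acta2, Tagln or Myh11 UMI gave 5.48, 6.28 and 1.92, against 5.69, 6.66 and 1.81 with all cells. Leaving out called doublets gave 5.92, 6.89 and 1.89. Leaving out cells with a smooth muscle UMI moved other libraries more, Sfrp1 in the library labelled null from 3.65 to 2.09 and Sfrp2 at E18.5 from 7.43 to 6.49. In the library labelled control each of these steps left fewer than 50 Eln-high cells, so its Sfrp1 and Sfrp2 calls, which rested mostly or wholly on the 1 called doublet above, were not retried.

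Along the number of Eln UMIs the members took different courses. Just outside the limit, in cells with 5 to 9 Eln UMIs, Sfrp2 stood at 13.5, 0.859 and 1.54 CPM at E15.5, E18.5 and P8, and just inside it, at 10 to 14 UMIs, at 17.96, 2.73 and 40.6 CPM. Cells with 60 or more Eln UMIs held 960, 440 and 221 CPM. Sfrp1 was also higher at each of these steps, with 1.08, 0.429 and 0 CPM just outside, 7.98, 0.910 and 1.16 CPM just inside and 134, 140 and 563 CPM at 60 or more. The courses parted at P8, where cells just inside the limit held 40.6 CPM of Sfrp2 but 1.16 CPM of Sfrp1. The cells richest in Eln held most UMIs of both Sfrp genes, at E18.5 977 of the 990 Sfrp2 UMIs and 310 of the 314 Sfrp1 UMIs of the class.

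Dkk2 stood at 521, 298 and 18.2 CPM in the cells just outside the limit, and at 406, 498 and 106 CPM in those just inside. At E15.5 it was highest just outside the limit, with 86.3 CPM in cells with no Eln UMI and 369 CPM at 60 or more, whereas at P8 it was higher in each further class, up to 277 CPM. Wif1 fell along the same axis: at P8 it went from 83.0 CPM in cells with no Eln UMI to 34.6 CPM at 5 to 9, 15.1 CPM at 10 to 14 and 3.94 CPM at 30 to 59, with 13.6 CPM in the 78 cells of the top class. At E18.5 its 60-or-more class held 0 CPM.

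**Figure D2:**
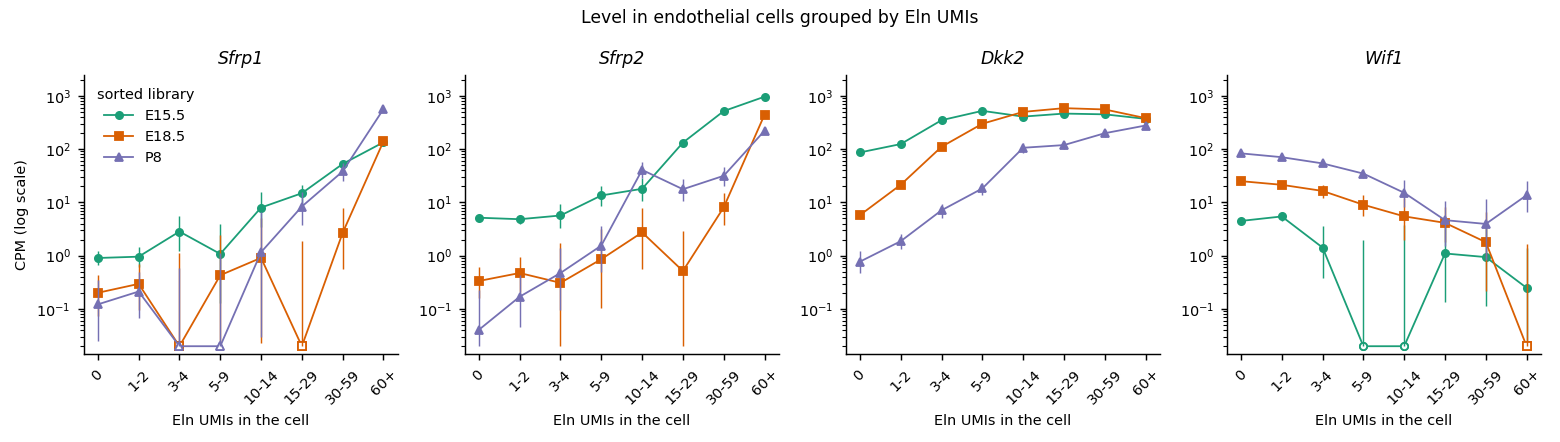
Levels of Sfrp1, Sfrp2, Dkk2 and Wif1 (CPM, log axis) in endothelial cells grouped by their number of Eln UMIs, at E15.5, E18.5 and P8, with 95% Poisson intervals. Sfrp1 and Sfrp2 are highest at 60 or more Eln UMIs (960 CPM for Sfrp2 at E15.5), while Dkk2 at E15.5 is already at 521 CPM with 5 to 9.

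Single cells showed how the 3 genes were shared out. Of 1101 Eln-high cells at E15.5, 337 held an Sfrp1 UMI, 632 an Sfrp2 UMI and 272 both, and 368 of those with neither held Dkk2. At E18.5, 113 of 721 cells held Sfrp1, 140 Sfrp2 and 95 both, and 517 held Dkk2 without either. At P8, 86 of 366 held Sfrp1, 80 Sfrp2 and 43 both, and 137 held none of the 3. Sfrp2 was found in 80.7% and 84.1% of the cells with Sfrp1 at E15.5 and E18.5 and in 43 of 86 at P8, and in 47.1%, 7.40% and 13.2% of those without it. These pairs share depth and Eln level within a cell, so they are given as a description.

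With every cell thinned to 2000 UMIs, Sfrp2 was found in 43.4% of Eln-high cells (exact 95% interval 40.4 to 46.4) at E15.5, 13.9% (11.5 to 16.7) by E18.5 and 11.5% (8.44 to 15.3) by P8, against 57.4%, 19.4% and 21.9% unthinned. Sfrp1 was found in 13.6% (11.7 to 15.8), 7.65% (5.81 to 9.84) and 14.3% (10.9 to 18.3), against 30.6%, 15.7% and 23.5% unthinned, and the thinning left out 8, 2 and 2 shallower cells. Eln-low cells held Sfrp2 in 1.23%, 0.0857% and 0.0522% and Sfrp1 in 0.270%, 0.0612% and 0.0261%. Lymphatic endothelial cells, taken as a type that should lack both, held each gene in 1 of 51 thinned cells at E15.5 (1.96%) and in 0 of 115 at E18.5, which allows a share of cells with a UMI of up to 2.61%. Unthinned, they held each in 5.88% at E15.5, and at E18.5 Sfrp1 in 2.61% and Sfrp2 in 1.74%, with a median of 10079 and 9076 UMIs per cell against 6976 and 8181 in Eln-high cells. The Eln-high shares stood above these values at both ages, thinned and unthinned. Since the rule chose these genes for Eln-rich cells, nothing is read from this. Of the lymphatic cells, 35.3% at E15.5 and 18.3% at E18.5 were called doublets, and 2 and 3 lymphatic cells also counted as Eln-high. In the library labelled null the thinned shares were 10.4% for Sfrp2 and 2.96% for Sfrp1.

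**Figure D3:**
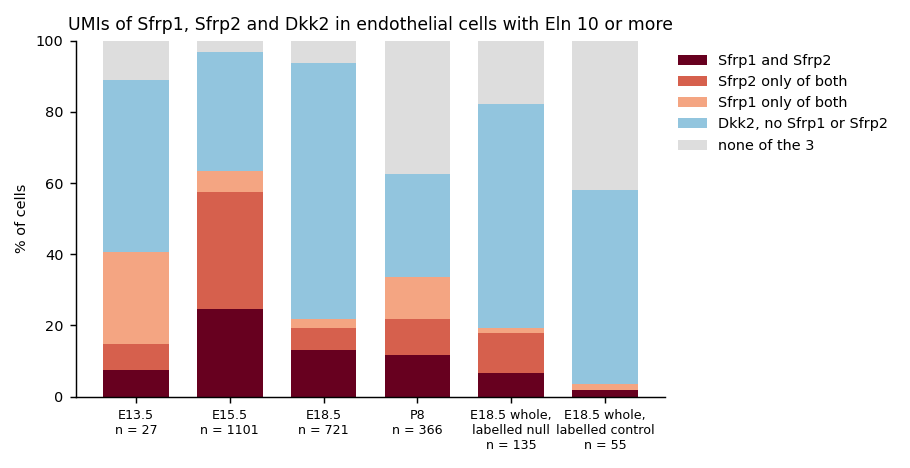
Percent of Eln-high endothelial cells of each library with UMIs of Sfrp1, Sfrp2, both, Dkk2 without either, or none of the 3, as stacked bars with the number of cells. Cells with Sfrp1 or Sfrp2 make up most of the bar at E15.5 (697 of 1101 cells), and cells with Dkk2 alone do at E18.5 (517 of 721).

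Between E15.5 and E18.5, Sfrp2 in Eln-high cells fell 3.74-fold (3.495 to 4.01), and it was the only one of 3 members tested to be called. Sfrp1 was 1.55-fold lower and Dkk2 1.20-fold higher, both under the limit. Between E18.5 and P8 all 3 members tested were called: Sfrp1 rose 2.67-fold (2.31 to 3.09), Sfrp2 fell 2.22-fold (1.93 to 2.57) and Dkk2 fell 2.96-fold (2.70 to 3.24). In the pooled class Sfrp1 and Sfrp2 thus moved in opposite directions over this interval. Their folds differed between the Eln levels given above. In the cells richest in Eln, Sfrp2 fell by less than in the pool over the first interval, and Sfrp1 did not fall. Over the second, Sfrp2 fell there again and Sfrp1 rose by more than in the pool. In cells just inside the Eln limit, both genes fell by more over the first interval, and Sfrp2 rose over the second. Over the same 3 ages the smooth muscle list in Eln-high cells went from 243 to 127 and 76.3 CPM, and its part in these changes was not tested beyond the setting below. A 4-gene capillary list in Eln-high cells went from 205 to 210 and 810 CPM. A change of level and a change in which cells made up the class therefore cannot be told apart. The background in Eln-high cells was 9.48% of genes called in either direction over the first interval and 10.3% over the second. The Sfrp1 rise went under the limit with an Eln minimum of 5 UMIs (log2 ratio 0.90 against 1.41), and the postnatal Sfrp2 fall did so without cells holding a smooth muscle UMI (-0.45 against -1.15), without cells holding a Col1a1 or Col3a1 UMI (-0.70), and with the mean of per-cell CPM (-0.88).

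In the Eln-low cells Dkk2 and Wif1 were called over all 3 intervals. Dkk2 fell 2.10-fold from E13.5 to E15.5, 3.86-fold to E18.5 and 10.48-fold to P8, from 245 CPM to 2.89 CPM. Wif1 fell 2.51-fold, then rose 4.96-fold and 3.19-fold. A 4-gene capillary list in these cells went from 398 to 476, 1081 and 2086 CPM over the 4 ages, so a change of level and a change in which endothelial cells made up the pool cannot be told apart. The members called were 3 of 3, 2 of 2 and 2 of 2 over the 3 intervals, against 7.78%, 15.2% and 8.38% of all genes. Sfrp1 and Wif1 at the first interval, Wif1 at the second and Dkk2 at the third reached 10 CPM only in the higher pool. Such a filter favours a call, so nothing is read from these counts. Sfrp1 was the third member called at the first interval, falling 14.6-fold from 14 UMIs at E13.5. Over that interval the summed mesenchymal list in Eln-low cells also went from 127 to 17.5 CPM and the smooth muscle list from 130 to 18.3 CPM, while the log2 ratio of Sfrp1, -3.33 with all cells, lay between -3.75 and -1.70 in 16 other settings, leaving out cells with a Col1a1 or Col3a1 UMI or with an Acta2, Tagln or Myh11 UMI among them. The file headers name Cell Ranger 3.1.0 at E13.5 and 3.0.2 at the later sorted ages. The first interval rested on 134 cells at E13.5, and its Wif1 and Dkk2 falls went under the limit in 4 and 3 of the 16 other settings.

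Within Eln-low cells, single vessel markers, chosen with the members' values known, set the 2 genes apart. At E18.5 Wif1 stood at 24.9 CPM in cells with 3 or more UMIs of the capillary lipase anchor Gpihbp1, at 28.0 CPM in those with Alox12, at 21.4 CPM in those with the arterial connexin Gja5 and at 16.7 CPM in those with 5 or more UMIs of Vwf, which marks larger vessels. Dkk2 in the same subsets stood at 6.45, 29.4, 48.1 and 110 CPM, so Vwf cells held the most Dkk2, while their Wif1 interval (13.2 to 20.9) overlapped that of Gja5 cells (19.04 to 24.03). These subsets overlap, since a cell can hold several markers.

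Mesenchymal cells also carried most of these genes. Relative to Eln-low cells, 3 of 5 members tested were called higher at E13.5, 4 of 5 at E15.5, 5 of 6 in the E18.5 and 3 of 3 in the P8 library, and all 4 tested in each whole-lung library. All genes tested were called higher in 14.1%, 15.3%, 15.9%, 17.4%, 15.3% and 15.4%, in the same order. The median log2 ratio of the members tested was 4.14, 7.07, 5.22, 5.30, 4.77 and 4.45. Sfrp2, Frzb and Dkk3 stayed under 10 CPM in Eln-low cells of every library, so they were tested only through the mesenchymal pool. That favours a call of higher, so nothing is read from these counts and medians. Members called lower in mesenchymal cells were Dkk2 and Wif1 at E13.5 and Dkk2 at E18.5, and all genes were lower in 11.9%, 11.3%, 14.9%, 16.9%, 13.9% and 13.9%. The Wif1 call at E13.5 and the Dkk2 call at E18.5 went under the limit in 2 and 1 of 17 other settings, to log2 ratios of -0.62 and -0.70 at the least.

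Mesenchymal Sfrp2 stood at 361 CPM at E13.5, 1978 CPM at E15.5, 229 CPM by E18.5 and 28.1 CPM by P8, and at 31.3 and 36.4 CPM in the libraries labelled null and control. It rose 5.48-fold to E15.5 and fell 8.65-fold and 8.13-fold after, so that its peak was at E15.5 as in Eln-high cells. The P8 level rested on 13 UMIs in 4 cells, 7 of them in 1 called doublet, and 13.2 CPM were left without it. Sfrp1 stood at 264, 242 and 164 CPM at the 3 embryonic ages, at 0 UMIs in the 59 cells at P8 (which allows up to 6.49 CPM, the value of 3 UMIs), and at 29.8 and 15.02 CPM in the whole lungs. Its P8 level was at least 25.3-fold lower than at E18.5, while Sfrp1 in Eln-high cells rose over the same interval. At E18.5, 231 of the 351 mesenchymal Sfrp1 UMIs lay in 37 cells with 10 or more UMIs of the matrix proteoglycan gene Dcn, and all 59 P8 cells were below that limit.

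Dkk3 was a mesenchymal gene in these libraries, at 7.77 CPM at E13.5, 123 CPM at E15.5, 73.9 CPM by E18.5, 130 CPM by P8, and 58.1 and 57.9 CPM in the libraries labelled null and control. Endothelial cells of either class held at most 4.07 CPM, though the 115 lymphatic endothelial cells at E18.5 held 17.8 CPM. It rose 15.9-fold between E13.5 and E15.5 and was not called later. Frzb, the Sfrp relative first known from cartilage, stood at 13.4, 28.0 and 16.8 CPM in mesenchymal cells at the embryonic ages, 0 UMIs at P8, and 0.589 and 0.680 CPM in the whole lungs, and at most 1.57 CPM in endothelial cells. Sfrp4 reached 8.80 CPM at most in any class, in mesenchymal cells at E15.5, and Sfrp5 at most 0.216 CPM in any class and library, so neither met the 10 CPM limit for a comparison. For Sfrp4 this was not for want of counts, with 416 UMIs in 280 mesenchymal cells at E13.5 and 128 in 71 at E15.5. At E15.5 it stood at 0.821 against 20.1 CPM in mesenchymal cells with and without 10 or more Acta2 UMIs.

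Wif1 in mesenchymal cells rose from 3.85 CPM at E13.5 and 1.72 CPM at E15.5 to 53.3 CPM by E18.5 and 151 CPM by P8, and stood at 150 and 120 CPM in the libraries labelled null and control. The rise was 31.0-fold (19.99 to 49.95) between E15.5 and E18.5 and 2.84-fold (2.08 to 3.86) to P8. Of its 70 UMIs at P8, 29 came from 1 of 59 cells, and 90.0 CPM were left without that cell, while the postnatal rise went under the limit with the mean of per-cell CPM (log2 ratio 0.87 against 1.497). Dkk2 went down instead, at 74.4, 92.5, 10.8 and 0 CPM in the sorted libraries and 1.42 and 2.10 CPM in the whole lungs, with a fall of 8.60-fold between E15.5 and E18.5. Of the members tested in mesenchymal cells, 3 of 5, 3 of 6 and 5 of 6 were called over the 3 intervals, against 11.3%, 11.5% and 19.9% of all genes. Dkk3 at the first interval, Wif1 at the second, and Sfrp1, Frzb and Dkk2 at the third reached 10 CPM in only 1 pool. That favours a call, so nothing is read from these counts. The first count includes the Frzb rise (log2 ratio 1.03), which went under the limit in 3 of 16 other settings, to 0.84 at the least. The last count includes Dkk2, at 0 UMIs at P8, whose fall is only 1.66-fold with P8 taken at 3 UMIs and whose E18.5 level was 7.52 CPM without 1 cell. At E18.5 Dkk2 stood at 44.5 against 0.608 CPM in mesenchymal cells with and without 10 or more Dcn UMIs, and all 59 P8 cells were below that limit. The sorted mesenchymal pool shrank from 87.4% of kept cells at E13.5 to 0.698% at P8, so a change of level and a change in which mesenchymal cells the sort kept cannot be told apart.

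Within the whole-lung mesenchyme the members marked different cells. Wif1 stood at 234 against 20.9 CPM in cells with and without an Hhip UMI (a hedgehog-binding protein) in the library labelled null, and at 150 against 21.5 CPM in the one labelled control. The growth factor gene Fgf18 split it in the same direction, at 312 against 46.1 CPM and 230 against 57.7 CPM, and so did the R-spondin receptor gene Lgr6, at 364 against 97.4 CPM and 274 against 94.9 CPM. It was low in cells with the fibroblast transcription factor Tcf21, at 34.8 against 310 CPM and 26.5 against 216 CPM. In the sorted E18.5 library the 68 Hhip cells held 211 CPM and the others 0.624 CPM. Lgr6 did not split the sorted libraries in this direction, at 45.4 against 54.6 CPM at E18.5 (27 Lgr6 cells) and 52.8 against 171 CPM at P8 (10 Lgr6 cells).

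Sfrp1 went with other cells, at 90.0 against 26.5 CPM and 118 against 13.5 CPM in cells with and without 10 or more UMIs of the matrix proteoglycan gene Dcn, and at 43.9 against 10.2 CPM and 19.9 against 9.94 CPM by Tcf21. By Tcf21 the sorted libraries ran the other way, with Sfrp1 at 113 against 280 CPM at E13.5, 57.0 against 247 CPM at E15.5 and 119 against 184 CPM at E18.5. Sfrp2 was lower in Tcf21 cells, at 11.7 against 58.6 CPM and 8.14 against 65.6 CPM. By Dcn it did not behave alike in the whole lungs, at 24.4 against 31.7 CPM in the library labelled null (170 Dcn cells) and 458 against 30.4 CPM in the one labelled control (42 Dcn cells). At E13.5 both genes were higher in Dcn cells, Sfrp1 at 633 against 195 CPM and Sfrp2 at 842 against 273 CPM. At E15.5 Sfrp1 was again higher in Dcn cells, at 475 against 132 CPM, and Sfrp2 was not, at 1803 against 2062 CPM. In the same library Dkk2 was low in cells with 10 or more UMIs of the smooth muscle actin gene Acta2, at 9.26 against 210 CPM, where Sfrp2 stood at 2151 against 1734 CPM.

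**Figure D4:**
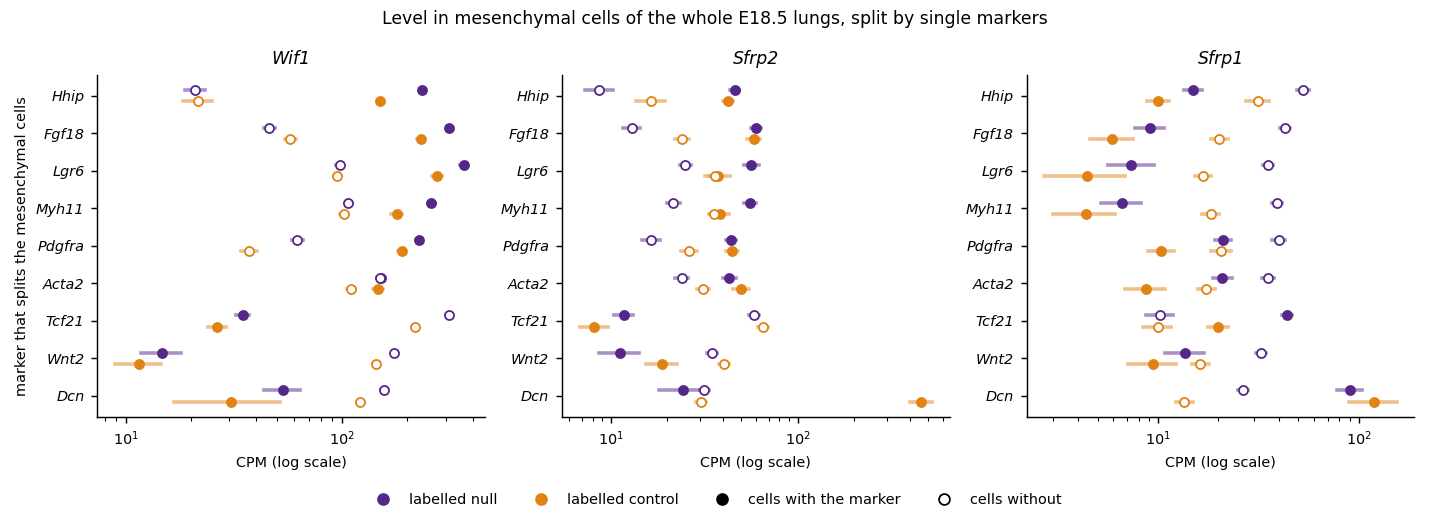
Levels of Wif1, Sfrp2 and Sfrp1 (CPM, log axis) in mesenchymal cells of the whole E18.5 lungs with (filled) and without (open) a marker, for 9 markers, with 95% Poisson intervals. Wif1 is higher with Hhip, Fgf18 or Lgr6 and lower with Tcf21 or Wnt2 in both libraries, and Sfrp1 is higher with Dcn.

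The comparison of the libraries labelled null and control asks whether loss of the chemokine moved these genes. Of the members tested, 1 of 4 was called in Eln-high cells, 0 of 1 in Eln-low cells and 0 of 4 in mesenchymal cells, against 13.7%, 0.808% and 1.26% of all genes. The member called, Wif1, reached 10 CPM in only 1 pool. That favours a call, so nothing is read from the Eln-high count. The Eln-high comparison of Sfrp2 and Sfrp1 depended on 1 called doublet in the library labelled control, which gave all 87 of its Sfrp2 UMIs and 8 of its 11 Sfrp1 UMIs. Without that cell the library held 0 CPM of Sfrp2 against 129 CPM and 3.79 CPM of Sfrp1 against 18.6 CPM in the library labelled null, both past 2-fold. The 1 call was Wif1 in Eln-high cells, 3.67-fold lower (1.41 to 10.2) in the library labelled null, on 8 against 13 UMIs, and it went under the limit with an Eln minimum of 5 UMIs (log2 ratio -0.99 against -1.76). Of the 13 UMIs, 5 came from 1 called doublet, and of the 8, 3 from another, with 10.1 and 2.76 CPM left without them in the libraries labelled control and null. In these cells the epithelial list summed to 3666 CPM in the library labelled control against 63.5 CPM in the one labelled null, the immune list to 3871 against 475 CPM and the smooth muscle list to 460 against 154 CPM, and their part in the Wif1 difference was not tested. With stricter limits on the cells fewer than 50 Eln-high cells were left in the library labelled control. Mesenchymal Sfrp1 was just under the limit, 1.98-fold higher (1.78 to 2.21) in the library labelled null. Since Cxcl12 itself was higher in the library labelled null, no direction is assigned to a genotype.

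Sorted and whole E18.5 lungs were compared in the same way. Against the library labelled control, 5 of 6 members were called in mesenchymal cells, 3 of 4 in Eln-high cells and 1 of 2 in Eln-low cells, where 17.7%, 17.3% and 6.19% of all genes were called. Frzb and Dkk2 in mesenchymal cells, Wif1 in Eln-high cells and Dkk2 in Eln-low cells reached 10 CPM in only 1 pool. That favours a call, so nothing is read from these counts. In sorted mesenchymal cells Sfrp1 was 10.9-fold higher (9.50 to 12.6), Sfrp2 6.29-fold (5.65 to 6.99), Frzb 24.8-fold (14.2 to 44.2) and Dkk2 5.12-fold (3.04 to 8.32), and Wif1 was 2.25-fold lower (1.86 to 2.73). Dkk3, at 1.28-fold, was under the limit, and the Wif1 difference went under it with the mean of per-cell CPM (log2 ratio -0.64 against -1.16). Against the library labelled null, chosen as a reference after the data were seen, the mesenchymal differences had the same directions, 5.51-fold for Sfrp1, 7.30-fold for Sfrp2, 28.6-fold for Frzb, 7.56-fold for Dkk2 and 2.81-fold lower for Wif1, with 13.8% of all genes called. In Eln-high cells against that library Sfrp1 was 2.64-fold higher (4.13% of all genes called), and in Eln-low cells Dkk2 was 3.05-fold higher (4.21%). Sorting, library, pooled animals, genotype and the Cell Ranger version (3.0.2 sorted, 3.1.0 whole) cannot be told apart in this comparison. By label only the library labelled control shares the Cxcl12DsRed/+ genotype of the sorted lungs. Its Cxcl12 was the lower of both whole lungs, so neither reference is sure to share that genotype.

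In Eln-high cells of the sorted E18.5 library, Sfrp1 was 3.62-fold higher (1.995 to 7.32), Dkk2 2.05-fold higher (1.78 to 2.39) and Wif1 6.41-fold lower (2.84 to 14.2) than in the library labelled control, with its 55 cells. Without the 1 called doublet that library held 3.79 in place of 13.6 CPM of Sfrp1 and 0 in place of 108 CPM of Sfrp2, against 49.3 and 155 CPM in the sorted library. Without the doublet that gave 5 of its 13 Wif1 UMIs it held 10.1 in place of 16.1 CPM of Wif1, against 2.51 CPM. The epithelial and immune lists in the sorted cells summed to 31.8 and 0.941 CPM, against the 3666 and 3871 CPM in the library labelled control, and their part in these differences was not tested. The Dkk2 call went under the limit in 4 of 12 other settings. Against the library labelled null neither of the last 2 was called, with Dkk2 1.42-fold higher (1.30 to 1.54) and Wif1 under 10 CPM in both pools, at 2.51 and 4.38 CPM. Eln-low Dkk2 was 4.62-fold higher (3.79 to 5.69), and the log2 ratio went from 2.13 to 0.44 with SoupX-adjusted counts in the whole lungs.

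Within the endothelium Dkk2 also moved with Cxcl12 itself. Over all endothelial cells at E15.5 it rose from 51.3 CPM in cells with no Cxcl12 UMI to 125 CPM at 3 to 5 and 341 CPM at 24 or more, and in the library labelled null from 0.721 to 37.0 and 150 CPM. At E18.5 it went from 7.86 to 139 and 141 CPM, and at P8 it stayed between 9.84 and 16.9 CPM. Sfrp1 ran the other way at E15.5, from 12.7 to 2.28 CPM. A deeper cell holds more UMIs of every gene, and this was not adjusted for.

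The rest of the Wnt pathway was read from lists of 19 ligands, 15 receptors, 9 R-spondins and partners, 12 other antagonists and 8 target genes. In Eln-high over Eln-low cells, receptors were called higher in 3 of 8 tested at E15.5, 2 of 8 in the E18.5 and 1 of 8 in the P8 library, led by Fzd1 (30.8 against 5.52 CPM at E15.5) and the Wnt5a receptor Ror2 (10.8 against 0.726 CPM), where 8.11%, 6.58% and 6.29% of all genes were called higher. Sost, another LRP-binding antagonist, stood at 96.5 against 11.7 CPM at E15.5, 106 against 3.90 CPM by E18.5 and 19.8 against 0.571 CPM by P8, so it shared the Dkk2 class and its postnatal fall. Target genes were called lower in Eln-high cells in 2 of 2 tested at E15.5, 3 of 3 in the E18.5 and 3 of 4 in the P8 library, against 3.74%, 6.56% and 5.14% of all genes, among them Ccnd1, a cell cycle gene (30.3 against 172, 38.0 against 304 and 116 against 370 CPM), and Nkd1, a feedback inhibitor (45.1 against 164 CPM at P8). A gene under 10 CPM in 1 pool, as Ror2 was in Eln-low cells, is tested only through the other pool. That favours a call, so nothing is read from these receptor and target counts.

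In mesenchymal over Eln-low cells every ligand tested was called higher, 4 of 4 at each embryonic age of the sorted libraries and in the library labelled null, and 5 of 5 at P8 and in the library labelled control, against 14.1% to 17.4% of all genes. A ligand under 10 CPM in Eln-low cells is tested only through the mesenchymal pool. That favours a call of higher, so nothing is read from these ligand counts. In the library labelled null Wnt2 stood at 88.3 against 0.719 CPM, Wnt5a at 192 against 2.65 CPM and the Wnt-inactivating enzyme Notum at 62.8 against 1.02 CPM. Its target genes were split, 4 higher and 1 lower of 6 tested against 15.3% and 13.9% of all genes, with the feedback gene Axin2 at 52.5 against 3.37 CPM and Ccnd1 at 16.5 against 390 CPM. Axin2 was tested only through the mesenchymal pool, so nothing is read from these target counts either.

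Over the 21 pools, on log2(CPM + 1), the gene most like Sfrp1 among 12285 was Sfrp2 (Pearson r = 0.88), while Sfrp2 was most like Efna5 (0.94), Dkk2 most like Crispld1 (0.93), Frzb most like Tbx18 (0.96), Dkk3 most like Col24a1 (0.98) and Wif1 most like Mapt (0.88). The pools share libraries and depth, so these values describe likeness across cell classes only.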

How the data were processed

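Single-cell RNA was captured with 10x Chromium 3′ chemistry. Per the labels and methods, the authors aligned reads to mm10 with Cell Ranger 3.1 and deposited raw counts of UMIs per gene and cell for all 6 libraries. The file headers name version 3.0.2 for sorted E15.5, E18.5 and P8, and 3.1.0 for the others. Whole-lung files deposited beside these hold expected counts, from which the authors had taken free RNA out with SoupX. The adjustment removed 18.5% (labelled null) and 40.0% (labelled control) of UMIs. The study's own analysis used Seurat 3.2.2.

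The genes and lists were chosen with earlier results of these data known. A cell was kept at 700 genes or more and a mitochondrial share of 0.5% to 10%, judged on SoupX-adjusted values in the whole lungs. Raw counts were summed per class. Named genes were the 8 members, the 2 most changed genes of each pathway list in each direction and the 3 most like genes per member. Doublets were kept. The automatic threshold of Scrublet (in scanpy 1.11.5) marked 1, 409, 0, 1, 474 and 473 cells, so the cells of highest score, 0.8% per 1000 cells, were called and left out only as an alternative. Intervals are Poisson, Clopper-Pearson or conditional binomial and cover counting error only. No column of another series was present. Computations used Python 3.11.15, numpy 2.4.6, scipy 1.17.1, pandas 2.3.3 and matplotlib 3.10.9, and the count scripts were tested on simulated data. GRCm38 gene positions came from GENCODE M21.

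Depth was 63746333 to 117522172 UMIs per library. The alternatives covered the Eln, collagen and endothelial limits, doublets, quality filter, CPM minimum, pseudocount, per-cell means, SoupX counts and thinning. Leaving out lymphatic cells, and taking the library labelled null as the unsorted reference, were added after seeing the data.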

Additional observations from a re-analysis of the deposited data

Results flagged for a closer look

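The pooled Sfrp1 level moved in opposite directions between E18.5 and P8 in the 2 classes that carry it. Its log2 ratio was 1.41 in Eln-high endothelial cells and -8.36 in mesenchymal cells, where the P8 pool of 59 cells held 0 UMIs. The second value is set by the pseudocount of 0.5 CPM, and with P8 taken at 3 UMIs the fall is 25.3-fold. At E18.5, mesenchymal Sfrp1 stood at 468 against 73.0 CPM in cells with and without 10 or more Dcn UMIs. All 59 P8 cells were below that Dcn limit, so a change of level and a change in which cells made up the pool cannot be told apart. The difference was not tested because each age had 1 library.

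Wif1 in mesenchymal over Eln-low endothelial cells had a log2 ratio of -1.45 at E13.5, and of 1.22 at E18.5, 1.07 at P8, 3.15 in the library labelled null and 2.93 in the library labelled control. At E15.5, where neither pool reached 10 CPM, the levels were 1.72 CPM in mesenchymal and 4.54 CPM in Eln-low cells, the same direction as at E13.5. The E13.5 value rested on 134 Eln-low cells, and the difference was not tested.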

How the results depend on the processing

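No paired analysis was possible because each group had 1 library and no test was run. Of 76 called differences of the members, 51 stayed at least 2-fold and in the same direction in all settings. Another 12, in Eln-high cells labelled control or mesenchymal cells at P8, did so where a value could be had, since stricter cell limits left under 50 cells, and 13 went under 2-fold or turned in at least 1. The 12 include Sfrp2 and Sfrp1 in Eln-high over Eln-low cells labelled control. Without 1 called doublet, a step not among the settings, those Eln-high cells held 0 CPM of Sfrp2 and 3.79 CPM of Sfrp1, under the 10 CPM limit, so these calls are not robust. The direction turned once, for Wif1 in Eln-high over Eln-low cells of the library labelled null, which went from -1.79 to 0.98 (log2) with SoupX-adjusted counts. The count of members called between the libraries labelled null and control was 1, and it became 0 with an Eln minimum of 5 or of 20 UMIs, without cells holding a Col1a1 or Col3a1 UMI, without cells holding an Acta2, Tagln or Myh11 UMI, without called doublets and with a minimum of 50 CPM, 2 with the mean of per-cell CPM and 3 with no minimum. With the Eln minimum of 20, the collagen, the smooth muscle and the doublet limits, too few Eln-high cells labelled control were left, so these 0 counts cover the other classes only. A minimum of 50 CPM also lowered the mesenchymal calls over Eln-low cells from 23 to 15 and the calls between sorted and whole lungs from 9 to 4. The counts of 51, 12 and 13 above rest on the ratio alone, so a call lost only through this minimum does not enter the 13. A limit on cells outside the pools of a ratio cannot move that ratio.

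Shares of Eln-high cells moved with depth. In the order E15.5, E18.5 and P8, with all UMIs of each cell they were 30.6%, 15.7% and 23.5% for Sfrp1 and 57.4%, 19.4% and 21.9% for Sfrp2, and with cells thinned to 4000 UMIs 21.5%, 10.1% and 19.5% for Sfrp1 and 51.8%, 16.5% and 15.9% for Sfrp2. Depth and cell number limited the Eln-high pools at E13.5 and in the library labelled control, the mesenchymal pool at P8, and Sfrp5 everywhere. Sfrp4 stayed under the 10 CPM limit in every pool compared.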
